A study of Mus musculus with 6 samples.

Results

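The serpin gene family was examined in the skin of imiquimod-treated mice with and without Tnip1. Members were chosen by name and by measured counts: all gene symbols that begin with Serpin and had at least 10 counts summed over the 6 libraries. The files listed 67 such symbols among 34590 gene symbols, and 51 of the 67 reached the threshold. Of the 16 below it, 7 had no count and 9 had 1 to 9 counts. Just below the threshold stood Serpina11 with 9 counts (7 in knockout and 2 in wild type libraries), and just above it Serpina3e-ps with 13 counts (2 in knockout and 11 in wild type libraries).

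The knockout group was skin of 3 Tnip1-/- mice and the wild type group was skin of 3 Tnip1+/+ mice, all on the C57BL/6 background. Every mouse was labelled as treated on the skin surface for 2 days with imiquimod, which activates Toll-like receptor 7 and is widely used to model psoriasis in mice. The product of Tnip1 binds ubiquitin chains together with A20 and dampens signalling to NF-kB. The labels give no age, sex, allele or deleted part of Tnip1, and untreated skin was not analysed here, so the effect of imiquimod itself cannot be read from these libraries. The library codes in the labels contain IMQ for the 3 wild type libraries and NORM for the 3 knockout libraries and run in separate blocks of numbers, while titles and treatment labels give imiquimod for all 6. Anything the codes mark cannot be told apart from genotype.

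Serpins are proteins of a shared fold, most of which trap a serine or cysteine protease by offering a reactive loop as bait and then changing shape irreversibly. Clade A holds secreted serpins such as alpha-1-antitrypsin and antichymotrypsin, and clade B holds serpins without a classical signal peptide that act mainly inside cells or at their surface. In mouse, several human serpin genes correspond to tandem clusters of copies. These are chiefly Serpina1 and Serpina3 on chromosome 12, Serpinb3 on chromosome 1, and Serpinb1, Serpinb6 and Serpinb9 on chromosome 13. Other clade B genes lie beside Serpinb3 on chromosome 1. In skin, clade B serpins are known from keratinocytes, where they face kallikreins, cathepsins and the proteases of infiltrating leukocytes.

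Libraries held 19529970 to 25864730 gene counts in knockout skin and 24701074 to 31005554 in wild type skin. Tnip1 averaged 1.81 ± 0.230 CPM in knockout skin and 26.4 ± 1.55 CPM in wild type skin (SD, n = 3 each), where CPM is counts scaled to a common library size after TMM normalization. Xist stood above the Y-linked gene Ddx3y in 1 of 3 knockout and 2 of 3 wild type libraries, so the sexes were unequal between genotypes. Markers of several cell types moved with genotype, read against 22.3% of all tested genes called higher and 22.7% called lower. All 8 tested neutrophil markers were called higher (summed level 7405 to 12090 CPM in knockout and 28.9 to 165 CPM in wild type libraries). Called lower were 6 of 6 muscle, 5 of 6 sebocyte and 3 of 6 adipocyte markers. Most of the neutrophil sum came from S100a8 and S100a9, which keratinocytes of inflamed skin are also known to make. Without these 2 genes the sum was 165, 93.7 and 118 CPM in knockout replicates 1, 2 and 3 and 16.7, 18.9 and 11.4 CPM in wild type replicates 1, 2 and 3. Macrophage and monocyte markers (3 of 6 higher) summed to between 1934 and 2280 CPM in knockout skin and between 985 and 1398 CPM in wild type skin. Of the endothelial markers 3 of 5 were called lower, and of the mast cell markers 0 of 6 were called in either direction, also with DESeq2. Of 7 measured hair follicle markers only 3 were tested, and 2 of these were called lower. The 7 hair follicle markers summed to 5.60, 10.1 and 9.61 CPM in knockout replicates 1, 2 and 3 and to 36.3, 16.4 and 77.1 CPM in wild type replicates 1, 2 and 3. Ly6g, a defining neutrophil marker, was not tested, at 0.388, 0 and 0.209 CPM in knockout replicates 1, 2 and 3 and 0 in every wild type library. Markers of skin were present, with suprabasal keratinocyte genes at 5447 to 8082 CPM summed in knockout and 5085 to 6166 CPM in wild type libraries. Summed adipocyte markers were 972, 133 and 682 CPM in knockout replicates 1, 2 and 3 and 1870, 3256 and 1920 CPM in wild type replicates 1, 2 and 3. Fewer cells of a type and less RNA per cell cannot be told apart in such whole-tissue libraries. The part of these cell types in the serpin values was not tested.

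The family differed widely between genotypes, in both directions. Of the 51 members, 40 passed the filter on low counts and were tested, and 11 with 13 to 55 summed counts were not. With p-values of edgeR's quasi-likelihood test adjusted by Benjamini-Hochberg over all 16691 tested genes, 25 members were called at an adjusted p under 0.05 (62.5% of those tested, against 45.1% of all tested genes). Of these, 12 were higher in knockout skin (30.0%, against 22.3% of all genes) and 13 were lower (32.5%, against 22.7%). The median log2 fold change, knockout minus wild type, was -0.06 over tested members and -0.04 over all genes. The median size of the change without its sign was 1.49 over tested members and 0.52 over all genes. Called members that moved by at least 2 on the log2 scale numbered 14, 6 higher and 8 lower, where 6.69% of all genes did so. Knockout and wild type libraries were fully separated in 25 of the 40 tested members (62.5%), the same 25 that were called. Among all tested genes, called or not, 59.8% were separated in this way (29.2% with the knockout libraries higher and 30.5% with them lower). With library totals in place of TMM factors the members split into 10 higher and 14 lower, and all genes into 2490 higher and 4809 lower (34.1% of calls higher, against 49.6% with TMM), with the median of all genes shifted by -0.16.

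Summed over the family, levels were close. The 51 members together made up 0.391, 0.357 and 0.318% of gene counts in knockout replicates 1, 2 and 3 and 0.391, 0.336 and 0.295% in wild type replicates 1, 2 and 3. Clade B members summed to 2671 ± 302 CPM in knockout skin and 1317 ± 92.2 CPM in wild type skin. Clade A members summed to 562 ± 127 CPM in knockout skin and 873 ± 195 CPM in wild type skin. The sums of clade B did not overlap between genotypes, whereas those of the whole family did. Per kilobase of exon, the members with the highest mean levels in knockout skin were Serpinb3a (250 CPM per kilobase), Serpinb2 (239), Serpina3n (205), Serpinb5 (204) and Serpinb3b (167). In wild type skin they were Serping1 (241 CPM per kilobase), Serpina3n (197), Serpinb5 (147), Serpinh1 (121) and Serpinb2 (81.3). Serpinb3a stood at 3.99 CPM per kilobase in wild type skin.

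**Figure D1:**
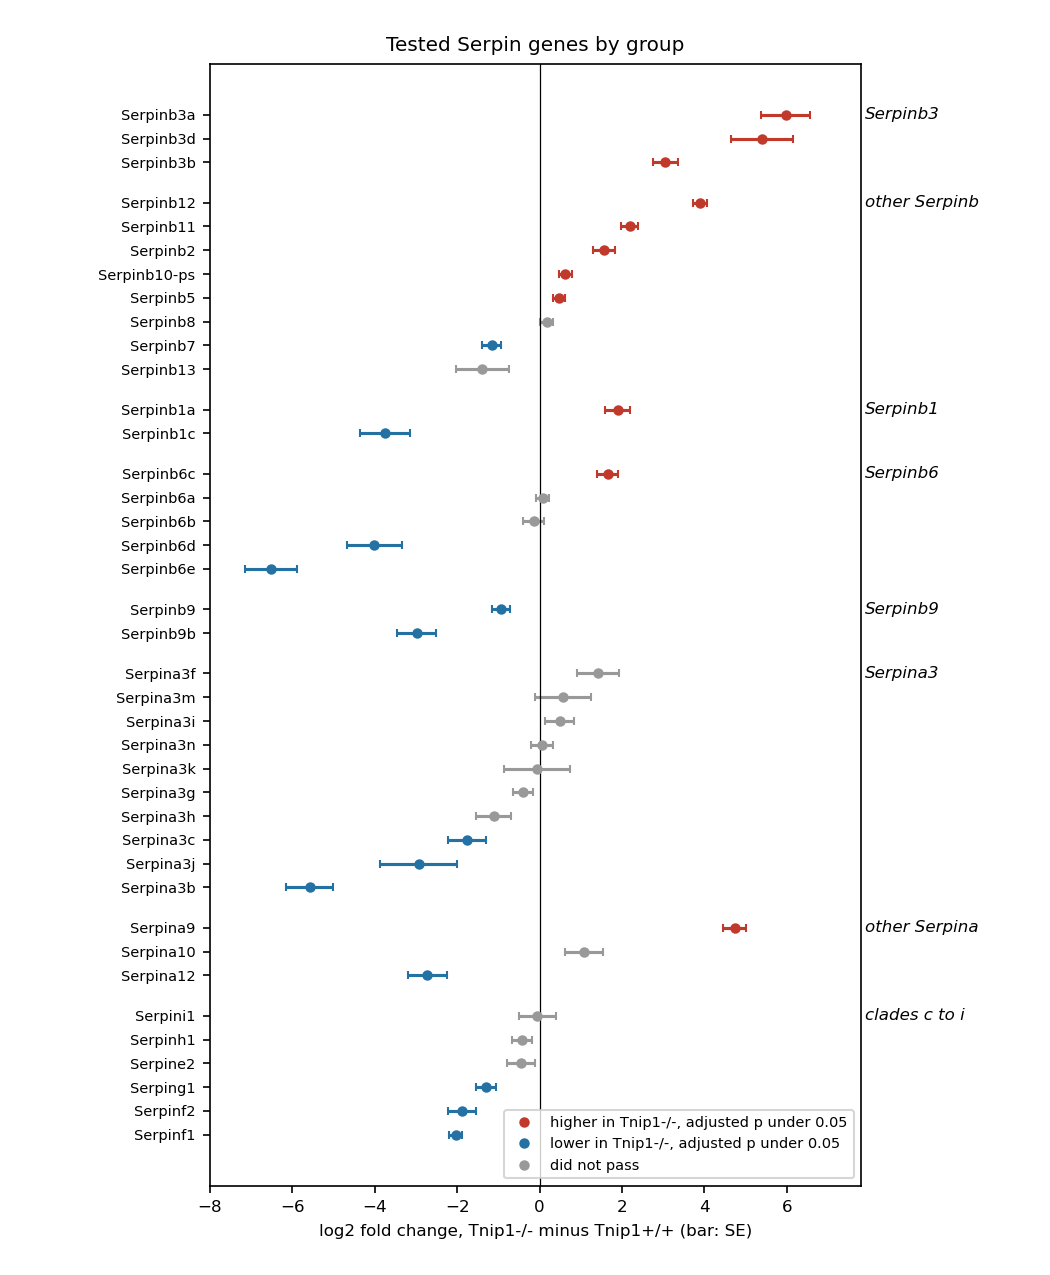
Log2 fold change (x axis, knockout minus wild type, bars give the SE) of 39 tested serpin genes, ordered by clade and cluster down the page; colour shows the call at an adjusted p under 0.05 over all genes. Serpinb3a (5.97) lies farthest to the right and Serpinb6e (-6.52) farthest to the left, and copies of 1 cluster lie on both sides of 0 in Serpinb1 and Serpinb6.

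The 12 clade B members on chromosome 1 were mostly higher in knockout skin. Of 11 tested, 8 were called higher, 1 was called lower and 2 did not pass, with a median log2 fold change of 1.55. Among all tested genes 22.3% were called higher and 22.7% lower. Together these genes summed to 2208 ± 279 CPM in knockout skin and 910 ± 66.8 CPM in wild type skin (SD, n = 3 each). The 2 largest log2 fold changes of the stretch belonged to Serpinb3 copies. These genes are the mouse counterparts of the human squamous cell carcinoma antigens SERPINB3 and SERPINB4, which are expressed in squamous epithelium, are raised in psoriatic skin and inhibit lysosomal cysteine proteases or chymotrypsin-like serine proteases. Among basal keratinocyte markers, 3 of 6 were called higher (Krt14 at 2.54, Krt5 at 1.19 and Itga6 at 1.02 on the log2 scale) and Krt15 was called lower (-3.08), while Trp63 (0.07) and Col17a1 (-0.22) did not pass. Krt5 lost its call without knockout replicate 2 (1.20) or 3 (1.03) or wild type replicate 2 (0.94) or 3 (1.12). Their sum was between 14140 and 18880 CPM in knockout skin and between 3050 and 6616 CPM in wild type skin. Without Krt14 it was 3494, 4305 and 4925 CPM in knockout replicates 1, 2 and 3 and 3851, 1828 and 2768 CPM in wild type replicates 1, 2 and 3, which overlap. The part of these markers in the serpin values was not tested.

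Serpinb3a was at 537, 438 and 250 CPM in knockout replicates 1, 2 and 3 and at 5.85, 11.1 and 2.59 CPM in wild type replicates 1, 2 and 3. The lowest knockout library was far above the highest wild type library, and within each genotype replicate 3 was the lowest. The log2 fold change was 5.97 (SE 0.60, edgeR adjusted p = 8.82e-04), and 6.58 without wild type replicate 2. Serpinb3b was at 375, 284 and 185 CPM in knockout libraries and at 35.1, 41.3 and 25.5 CPM in wild type libraries, a log2 fold change of 3.05 (SE 0.30, edgeR adjusted p = 8.28e-04). The groups did not overlap for Serpinb3b either, and its wild type level was above that of Serpinb3a in each of the 3 wild type libraries. Serpinb3d was a rare transcript, at 1.98, 1.78 and 2.51 CPM in knockout libraries and at 0, 0.136 and 0 CPM in wild type libraries. Its summed counts were 136 in knockout and 4 in wild type libraries. Scaled by the summed TMM-adjusted library sizes, the ratio was 46.3 (95% exact interval 17.7 to 172, counting error only). The fitted log2 fold change of Serpinb3d was 5.40 (SE 0.75, edgeR adjusted p = 0.00241), 4.81 without wild type replicate 1 and 8.72 without wild type replicate 2, the library that held all 4 wild type counts. Serpinb3c did not pass the filter, with 46 counts in knockout and 9 in wild type libraries (ratio 6.96, interval 3.36 to 16.2).

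Within the cluster the leading copy differed between genotypes. Counts of Serpinb3a per count of Serpinb3b were 1.43, 1.54 and 1.35 in knockout replicates 1, 2 and 3 and 0.167, 0.268 and 0.101 in wild type replicates 1, 2 and 3. Serpinb3a took 57.1 to 60.4% of Serpinb3 counts in knockout libraries and 9.21 to 21.0% in wild type libraries, and Serpinb3b took 39.2 to 42.3% and 78.3 to 90.8%. This ratio compares 2 genes inside a library and so does not depend on library scaling. Serpinb3a shared 6.53% of its 100-base transcript windows with another gene model, Gm8080, and Serpinb3b and Serpinb3c shared 0.515% and 0.513% (GENCODE M21), so most reads of 100 bases could be told apart by sequence.

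The promoters of Serpinb3a and Serpinb3b are shown because these copies hold nearly all counts of the cluster and stand in opposite order in the genotypes. Each is the RefSeq GRCm38.p6 stretch of 300 bases, from 250 before to 50 after the annotated start, written 5′ to 3′ on the gene's strand, with matches to the searched motifs in capitals. Serpinb3a lies at chr1:107052254-107052553 on the minus strand and Serpinb3b at chr1:107161065-107161364 on the minus strand. The capitals mark TATAAA, the letters of the TATA box.
Serpinb3a: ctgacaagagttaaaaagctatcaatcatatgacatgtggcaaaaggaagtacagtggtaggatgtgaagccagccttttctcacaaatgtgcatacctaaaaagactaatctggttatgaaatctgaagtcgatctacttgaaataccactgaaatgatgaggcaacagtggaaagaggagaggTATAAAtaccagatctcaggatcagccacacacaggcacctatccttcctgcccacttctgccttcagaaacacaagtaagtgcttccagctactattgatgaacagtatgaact
Serpinb3b: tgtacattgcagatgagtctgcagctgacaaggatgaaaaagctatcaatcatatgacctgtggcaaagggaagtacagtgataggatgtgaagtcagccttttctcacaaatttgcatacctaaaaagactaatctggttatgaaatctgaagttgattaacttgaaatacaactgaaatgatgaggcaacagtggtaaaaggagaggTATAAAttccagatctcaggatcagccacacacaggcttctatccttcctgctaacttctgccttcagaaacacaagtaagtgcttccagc
After global alignment the 2 stretches were identical at 79.3% of positions. Both hold TATAAA, beginning 65 bases before the annotated start in Serpinb3a and 41 bases before it in Serpinb3b. Whether these letters act as a TATA box was not tested. Of the 4 Serpinb3 promoters, 4 held TATAAA, which 14.2% of 27025 RefSeq promoters of this length hold at any place on either strand. None held TGANTCA, a wide form of the AP-1 motif, on either strand.

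**Figure D2:**
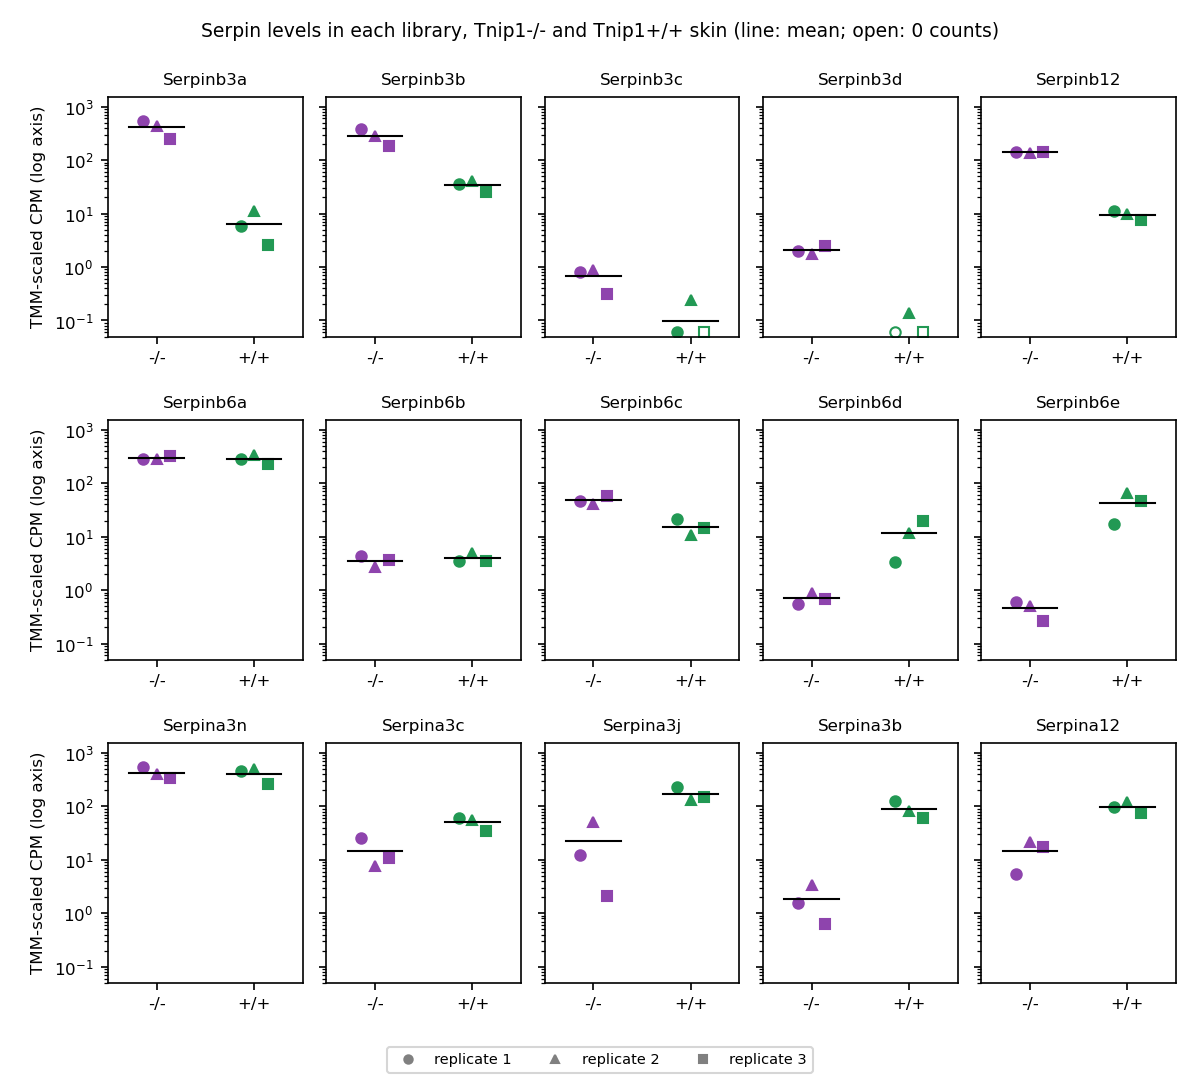
Level of selected serpin genes in each library (y axis, TMM-scaled CPM, log axis), 1 panel per gene, knockout libraries to the left of wild type libraries; marker shape gives the replicate number. The Serpinb3a points lie at 250 CPM or more in knockout skin and at 11.1 CPM or less in wild type skin, while those of Serpina3n overlap.

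The chromosome 1 neighbours of Serpinb3 differed among themselves in size and sign. Serpinb12, a serpin known from human epithelia as an inhibitor of trypsin-like proteases, was at 139, 138 and 145 CPM in knockout libraries and at 11.3, 9.65 and 7.59 CPM in wild type libraries. The knockout values were nearly equal and none came near the wild type values, with a log2 fold change of 3.88 (SE 0.17, edgeR adjusted p = 7.6e-05). Serpinb11 was at 28.6, 38.7 and 47.9 CPM in knockout libraries and at 7.74, 8.67 and 8.81 CPM in wild type libraries (log2 fold change 2.19, SE 0.20, edgeR adjusted p = 6.65e-04). Serpinb2, which encodes plasminogen activator inhibitor 2, was at 756, 434 and 492 CPM in knockout libraries and at 230, 203 and 140 CPM in wild type libraries (log2 fold change 1.55, SE 0.27, edgeR adjusted p = 0.00478). Serpinb2 shared 7.52% of its 100-base windows, all with the adjacent Serpinb10-ps (Serpinb10 in GENCODE), so a small part of its reads is uncertain.

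A pair of smaller increases depended on the library set. Serpinb5 encodes maspin, a keratinocyte serpin without known protease inhibition, and was at 489, 595 and 597 CPM in knockout libraries and at 428, 354 and 432 CPM in wild type libraries. Its log2 fold change of 0.47 (SE 0.15, edgeR adjusted p = 0.0362) lost its call without any 1 of knockout replicates 2 and 3 and wild type replicates 1, 2 and 3 (0.38 to 0.53), and with library totals (0.31), upper-quartile factors (0.39) or a sex covariate (0.47). Serpinb10-ps, named Serpinb10 and annotated as protein-coding in RefSeq, was at 32.9, 38.8 and 48.7 CPM in knockout libraries and at 26.3, 28.3 and 23.3 CPM in wild type libraries. Its log2 fold change of 0.63 (SE 0.17, edgeR adjusted p = 0.0214) lost its call without knockout replicate 3 (0.47) or wild type replicate 3 (0.57) and with library totals (0.48).

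Serpinb7 went the other way. It encodes megsin, an epidermal serpin whose human gene is mutated in Nagashima-type palmoplantar keratosis. Serpinb7 was at 41.8, 75.4 and 43.7 CPM in knockout libraries and at 122, 121 and 116 CPM in wild type libraries, a log2 fold change of -1.16 (SE 0.23, edgeR adjusted p = 0.00767). It was the one gene of the stretch called lower, and it lies between Serpinb11 and Serpinb2, both called higher. Serpinb8, whose human gene is mutated in a peeling skin disorder, was at 97.0, 135 and 133 CPM in knockout libraries and at 115, 110 and 99.2 CPM in wild type libraries and did not pass (log2 fold change 0.17, SE 0.15, edgeR adjusted p = 0.382). Serpinb13, whose human counterpart inhibits cathepsins, was at 0.259, 1.44 and 0.261 CPM in knockout libraries and at 2.31, 1.60 and 1.33 CPM in wild type libraries. Its log2 fold change of -1.39 (SE 0.65, edgeR adjusted p = 0.117) passed without knockout replicate 2 (-2.71), the one knockout library above the lowest wild type library, and with limma voom (-1.80). Against Serpinb5, a keratinocyte gene of the same stretch, Serpinb12 counts stood at 0.285, 0.232 and 0.242 per count in knockout libraries and at 0.0264, 0.0273 and 0.0176 in wild type libraries.

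Serpinb12 and Serpinb7 start regions are shown as the stretch's called genes of opposite sign. Serpinb12 is at chr1:106934199-106934498 and Serpinb7 at chr1:107422439-107422738, both on the plus strand of GRCm38.p6 and from RefSeq. Capitals mark TATAAA and TGANTCA on either strand.
Serpinb12: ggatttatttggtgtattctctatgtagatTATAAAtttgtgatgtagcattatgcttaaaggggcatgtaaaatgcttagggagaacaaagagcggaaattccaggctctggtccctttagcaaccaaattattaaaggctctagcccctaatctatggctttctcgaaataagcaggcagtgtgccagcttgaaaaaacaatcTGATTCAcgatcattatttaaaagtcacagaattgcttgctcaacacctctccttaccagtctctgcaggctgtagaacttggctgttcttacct
Serpinb7: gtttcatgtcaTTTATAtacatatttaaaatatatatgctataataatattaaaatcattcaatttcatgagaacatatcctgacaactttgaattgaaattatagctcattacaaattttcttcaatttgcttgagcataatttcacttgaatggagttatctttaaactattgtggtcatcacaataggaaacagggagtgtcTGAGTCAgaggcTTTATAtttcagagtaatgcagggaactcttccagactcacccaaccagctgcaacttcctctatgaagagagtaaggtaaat
Both hold a match to TGANTCA at bases 206 to 212 of the 300 printed, TGATTCA in Serpinb12 and TGAGTCA in Serpinb7. The search allowed any base in the middle, where the usual AP-1 motif has G or C. How many matches have G or C there was not counted. In all, TGANTCA was found in 7 of 7 promoters of the chromosome 1 stretch outside Serpinb3, in 0 of 4 Serpinb3 promoters and in 3 of the 28 other serpin promoters in the RefSeq table, where 7.93% of all promoters hold it. The 7 genes comprised 5 called higher, 1 called lower and 1 that did not pass. Serpinb13, another gene of that stretch, had no RefSeq promoter to search. This grouping was chosen after the matches were seen, and a match of letters is a description of sequence and not a binding site.

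**Figure D3:**
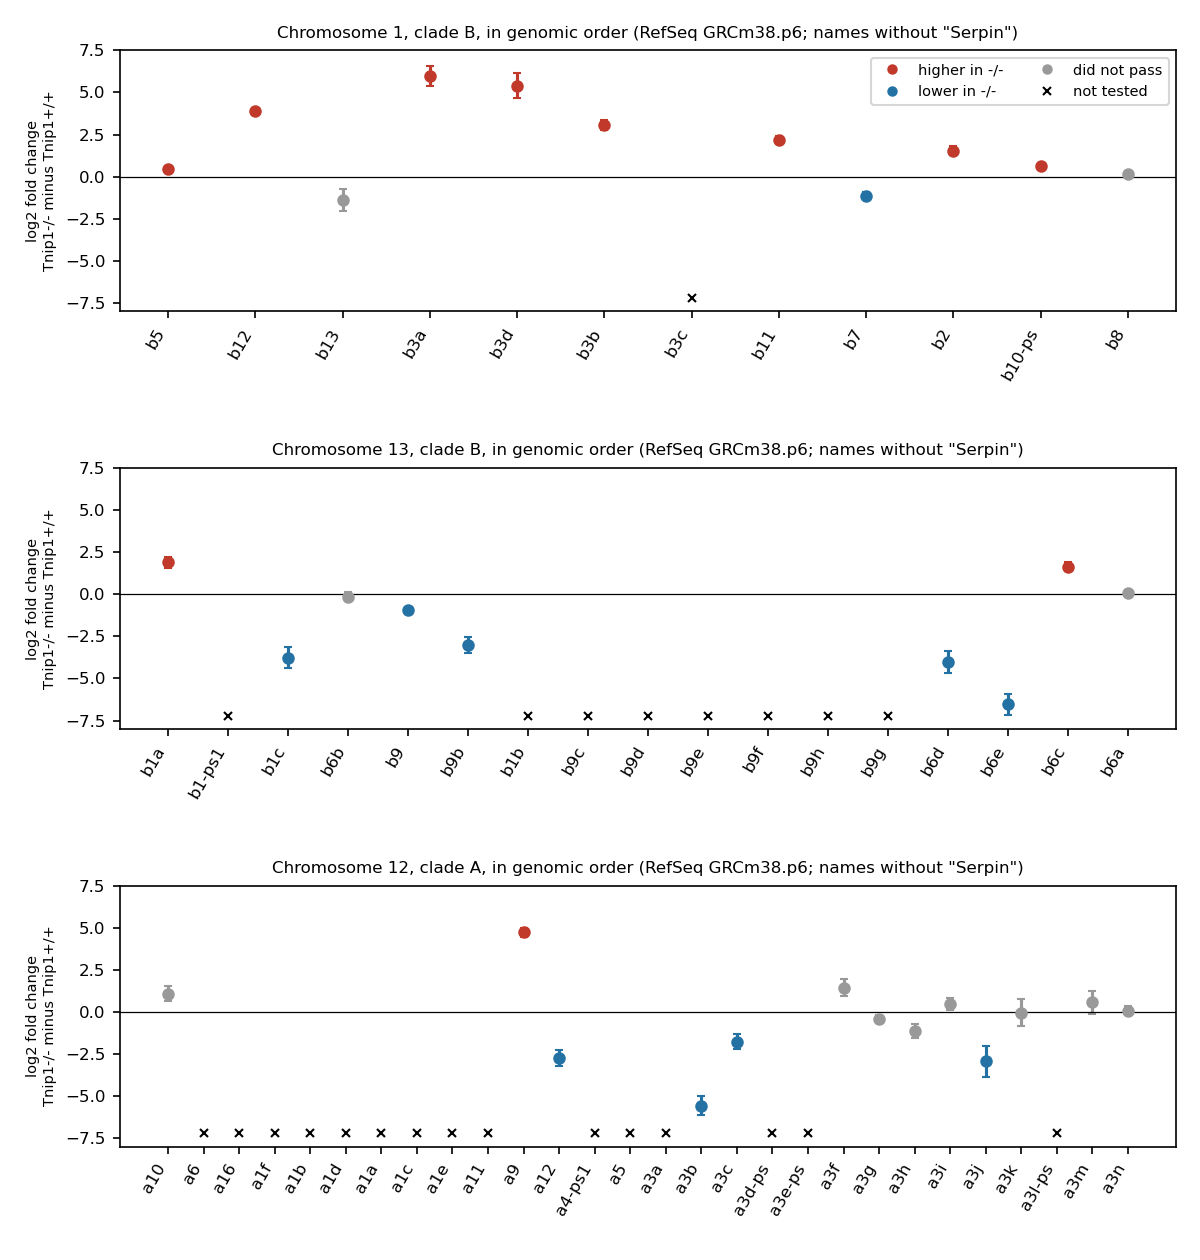
Log2 fold change (y axis, knockout minus wild type, bars give the SE) of clustered serpin genes in their RefSeq order along chromosomes 1, 13 and 12 (x axis, gene order and not distance); crosses mark genes that were not tested. On chromosome 1, 8 of 11 tested genes were called higher, and on chromosome 13, 2 of 9 were called higher and 5 lower. Over all tested genes 22.3% were called higher and 22.7% lower.

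The 10 clade B members on chromosome 13 were more often lower than higher. Of 9 tested, 2 were called higher, 5 lower and 2 did not pass, with a median log2 fold change of -0.94. Among all tested genes 22.3% were called higher and 22.7% lower, so the share called higher (2 of 9) was near that of all genes. In the Serpinb6 cluster, 1 copy was called higher, 2 lower and 2 did not pass. Serpinb6a, an inhibitor of cathepsin G and the broadly expressed copy, was at 288, 288 and 320 CPM in knockout libraries and at 288, 334 and 228 CPM in wild type libraries. Its groups overlapped and its log2 fold change of 0.08 (SE 0.16, edgeR adjusted p = 0.714) turned to -0.07 with library totals and -0.01 with upper-quartile factors. Serpinb6e was at 0.603, 0.508 and 0.261 CPM in knockout libraries and at 17.0, 65.8 and 46.9 CPM in wild type libraries. That was 31 counts over the knockout and 3769 over the wild type libraries, or 1.06% of the wild type level on average (log2 fold change -6.52, SE 0.63, edgeR adjusted p = 7.59e-04).

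Serpinb6d was at 0.560, 0.890 and 0.679 CPM in knockout libraries and at 3.42, 11.5 and 19.7 CPM in wild type libraries. The wild type libraries spread widely, and the log2 fold change of -4.01 (SE 0.67, edgeR adjusted p = 0.00415) was -3.36 without wild type replicate 3. Serpinb6c went the opposite way, at 45.6, 41.3 and 57.8 CPM in knockout libraries and at 21.1, 10.6 and 14.3 CPM in wild type libraries (log2 fold change 1.65, SE 0.26, edgeR adjusted p = 0.00367). Serpinb6b was at 4.35, 2.75 and 3.60 CPM in knockout libraries and at 3.51, 4.89 and 3.44 CPM in wild type libraries, and its groups overlapped (log2 fold change -0.15, SE 0.26, edgeR adjusted p = 0.662). Per count of Serpinb6a, Serpinb6e counts were 0.00209, 0.00177 and 0.000815 in knockout libraries and 0.0589, 0.197 and 0.206 in wild type libraries. No Serpinb6 copy shared a 100-base transcript window with another gene. The 5 copies together summed to 352 ± 26.9 CPM in knockout skin and 358 ± 60.5 CPM in wild type skin, since Serpinb6a made up most of the sum in both.

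The start regions of Serpinb6d and Serpinb6e are shown because these neighbours were the 2 called-lower copies and are more alike than the rest. Serpinb6d is at chr13:33661155-33661454 on the plus strand and Serpinb6e at chr13:33843359-33843658 on the minus strand (RefSeq, GRCm38.p6). They have no capitals, because none of the 5 searched motifs was found in these windows.
Serpinb6d: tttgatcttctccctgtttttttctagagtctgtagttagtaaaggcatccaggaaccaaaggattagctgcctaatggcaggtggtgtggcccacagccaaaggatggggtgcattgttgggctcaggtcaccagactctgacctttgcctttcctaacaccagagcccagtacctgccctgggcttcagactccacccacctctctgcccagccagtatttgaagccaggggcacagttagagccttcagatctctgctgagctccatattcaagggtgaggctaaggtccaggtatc
Serpinb6e: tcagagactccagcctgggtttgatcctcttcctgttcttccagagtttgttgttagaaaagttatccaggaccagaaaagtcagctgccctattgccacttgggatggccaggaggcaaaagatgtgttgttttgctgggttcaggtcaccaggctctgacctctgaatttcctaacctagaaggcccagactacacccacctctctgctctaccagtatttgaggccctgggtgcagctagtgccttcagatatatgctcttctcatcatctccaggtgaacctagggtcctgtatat
Identity was 67.4% between these 2 stretches after global alignment and 46.1 to 50.6% for all other pairs of Serpinb6 promoters.

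The Serpinb1 and Serpinb9 copies concern proteases of leukocyte granules. Serpinb1a, which inhibits neutrophil elastase, proteinase 3 and cathepsin G, was at 148, 81.9 and 70.3 CPM in knockout libraries and at 22.2, 34.2 and 24.5 CPM in wild type libraries. Every knockout library was above every wild type library (log2 fold change 1.89, SE 0.31, edgeR adjusted p = 0.00407), as in every tested neutrophil marker. Like Serpinb1a, the tested neutrophil markers other than Csf3r were highest in knockout replicate 1. Csf3r was highest in knockout replicate 3 (55.42 CPM, against 48.56 CPM in knockout replicate 1). Serpinb1a was lowest in knockout replicate 3, as were the tested neutrophil markers other than Mmp8 and Csf3r. Those were lowest in knockout replicate 2. Serpinb1a is itself abundant in neutrophils, and the share of its level that comes from them was not tested. Serpinb1c, a neighbouring copy, was at 0.172, 0.169 and 0.105 CPM in knockout libraries and at 0.870, 3.19 and 2.26 CPM in wild type libraries (log2 fold change -3.76, SE 0.61, edgeR adjusted p = 0.00378), from 10 counts over the knockout and 184 over the wild type libraries. Serpinb1b had 21 counts in knockout and 5 in wild type libraries and was not tested.

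Serpinb9, the inhibitor of granzyme B that protects cytotoxic lymphocytes and antigen-presenting cells, was at 11.6, 9.45 and 8.88 CPM in knockout libraries and at 19.7, 23.6 and 14.2 CPM in wild type libraries (log2 fold change -0.94, SE 0.21, edgeR adjusted p = 0.0121). Its copy Serpinb9b was called lower too, at or below 0.127 CPM in knockout skin and between 0.660 and 1.29 CPM in the wild type, from 7 knockout and 78 wild type counts. Of 7 Serpinb9 symbols the other 5 did not reach the count threshold. T and NK cell markers summed to between 8.83 and 13.6 CPM in knockout skin and between 13.7 and 18.9 CPM in wild type skin, with 2 of 6 called lower, and their part in the Serpinb9 difference was not tested.

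The Serpina3 cluster held 13 members, and its largest differences were decreases in knockout skin. Serpina3 genes are the mouse copies of the human antichymotrypsin gene SERPINA3, an acute-phase protein. Of 10 tested, 3 were called lower, 0 higher and 7 did not pass, so the share called (3 of 10) was below that of all genes. Without a call among the increases, 1 copy was higher at an unadjusted p under 0.05 by edgeR and 1 was called higher with DESeq2, Serpina3f in both cases. Serpina3b was at 1.55, 3.30 and 0.627 CPM in knockout libraries and at 125, 80.1 and 61.3 CPM in wild type libraries (log2 fold change -5.57, SE 0.57, edgeR adjusted p = 9.12e-04, and -6.30 without knockout replicate 2). Serpina3j was at 12.4, 51.5 and 2.14 CPM in knockout libraries and at 226, 133 and 148 CPM in wild type libraries. The knockout libraries differed 24.0-fold among themselves, with replicate 2 the highest. The log2 fold change of Serpina3j was -2.94 (SE 0.94, edgeR adjusted p = 0.0394), reached -4.51 without knockout replicate 2, and lost its call without knockout replicate 1 (-2.64) or wild type replicate 1 (-2.66), 2 (-3.08) or 3 (-3.02). Serpina3c was at 26.0, 7.58 and 10.8 CPM in knockout libraries and at 60.5, 55.7 and 35.1 CPM in wild type libraries (log2 fold change -1.77, SE 0.46, edgeR adjusted p = 0.0193). It reached -2.45 without knockout replicate 1 and lost its call without knockout replicate 3 (-1.58) or wild type replicate 1 (-1.60) or 2 (-1.69).

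Serpina3n, the abundant copy, is an inhibitor of granzyme B and a marker of the acute phase. It was at 533, 395 and 342 CPM in knockout libraries and at 461, 491 and 266 CPM in wild type libraries, and the groups overlapped (log2 fold change 0.06, SE 0.27, edgeR adjusted p = 0.865, but -0.09 with library totals, -0.02 with upper-quartile factors and -0.07 with a sex covariate). Serpina3n took 77.0 to 87.4% of Serpina3 counts in knockout libraries and 45.8 to 61.8% in wild type libraries. Serpina3j took 0.546 to 10.0% in knockout libraries and 16.8 to 25.5% in wild type libraries. Per count of Serpina3n, Serpina3b counts were 0.00291, 0.00836 and 0.00183 in knockout libraries and 0.271, 0.163 and 0.231 in wild type libraries.

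The other tested Serpina3 copies did not pass, and several turned on 1 library. Serpina3f was at 8.53, 4.24 and 1.88 CPM in knockout libraries and at 1.95, 1.56 and 1.96 CPM in wild type libraries (log2 fold change 1.42, edgeR adjusted p = 0.0552), and its value was 0.76 without knockout replicate 1 and passed at 1.81 without knockout replicate 3, at 1.44 with DESeq2 and at 1.43 with no filter. Serpina3h was at 9.18, 14.3 and 9.66 CPM in knockout libraries and at 20.1, 12.4 and 39.5 CPM in wild type libraries (-1.12, edgeR adjusted p = 0.0635), and passed at -1.43 without wild type replicate 2, at -1.10 with DESeq2 and at -1.29 with library totals. Serpina3m was at 21.3, 15.0 and 8.25 CPM in knockout libraries and at 21.0, 5.78 and 3.22 CPM in wild type libraries (0.56, edgeR adjusted p = 0.518), and passed at 1.74 without wild type replicate 1. In these 3 copies the highest library of a genotype stood well above its replicates. Serpina3g, known as Spi2A and induced in leukocytes, was at 9.65, 10.8 and 7.78 CPM in knockout libraries and at 15.1, 8.63 and 13.9 CPM in wild type libraries (-0.41, edgeR adjusted p = 0.196), and passed at -0.63 without wild type replicate 2. Serpina3i was at 15.5, 11.5 and 6.69 CPM in knockout libraries and at 9.75, 5.17 and 9.18 CPM in wild type libraries (0.49, edgeR adjusted p = 0.291). Serpina3k was at 3.79, 0.169 and 1.57 CPM in knockout libraries and at 2.61, 1.63 and 1.52 CPM in wild type libraries (-0.06, edgeR adjusted p = 0.955), and changed sign without any of knockout replicates 2 and 3 and wild type replicate 1. The groups of each of these 6 copies overlapped. The pseudogenes Serpina3d-ps, Serpina3e-ps and Serpina3l-ps had 2, 2 and 3 counts in knockout libraries and 18, 11 and 14 counts in wild type libraries and were not tested. Serpina3 members shared 0 to 6.09% of 100-base windows with other genes, and Serpina3b, Serpina3c and Serpina3j shared none.

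Serpina3c and Serpina3n are shown because nearly the same start region belongs to a gene called lower and to the abundant gene that did not pass. Serpina3c is at chr12:104153823-104154122 on the minus strand and Serpina3n at chr12:104406458-104406757 on the plus strand (RefSeq, GRCm38.p6). Capitals mark TATAAA in Serpina3c and, in Serpina3n, an NF-kB motif searched as GGG, any 2 bases, then TTTCC. At the corresponding place Serpina3c reads gggaattttccc, which does not match this form. Other forms of the NF-kB motif were not searched, so Serpina3c cannot be said to lack one.
Serpina3c: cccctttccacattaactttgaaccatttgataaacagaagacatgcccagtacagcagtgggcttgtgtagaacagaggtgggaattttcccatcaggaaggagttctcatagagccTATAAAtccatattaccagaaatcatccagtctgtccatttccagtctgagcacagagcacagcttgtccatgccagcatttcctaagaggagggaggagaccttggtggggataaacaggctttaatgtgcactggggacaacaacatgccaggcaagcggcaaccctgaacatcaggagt
Serpina3n: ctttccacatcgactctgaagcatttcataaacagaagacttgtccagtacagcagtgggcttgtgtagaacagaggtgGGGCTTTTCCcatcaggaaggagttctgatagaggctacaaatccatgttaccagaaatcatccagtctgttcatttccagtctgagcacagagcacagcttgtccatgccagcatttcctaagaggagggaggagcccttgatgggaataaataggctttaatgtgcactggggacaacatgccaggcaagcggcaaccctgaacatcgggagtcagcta
The 2 stretches were identical at 89.9% of positions after global alignment. The searched form of the NF-kB motif was found in 3 of the 39 serpin promoters in the table and in 1.62% of all promoters. The 3 were those of Serpina3g, Serpina3i and Serpina3n, and none of these genes passed the test. The other motifs searched on both strands, TTCNNNGAA of STAT factors (8.47% of all promoters) and interferon-stimulated response elements searched as TTTC, any 2 bases, then TTTC (3.49%), lay in 5 and 2 of the 39 serpin promoters.

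**Figure D4:**
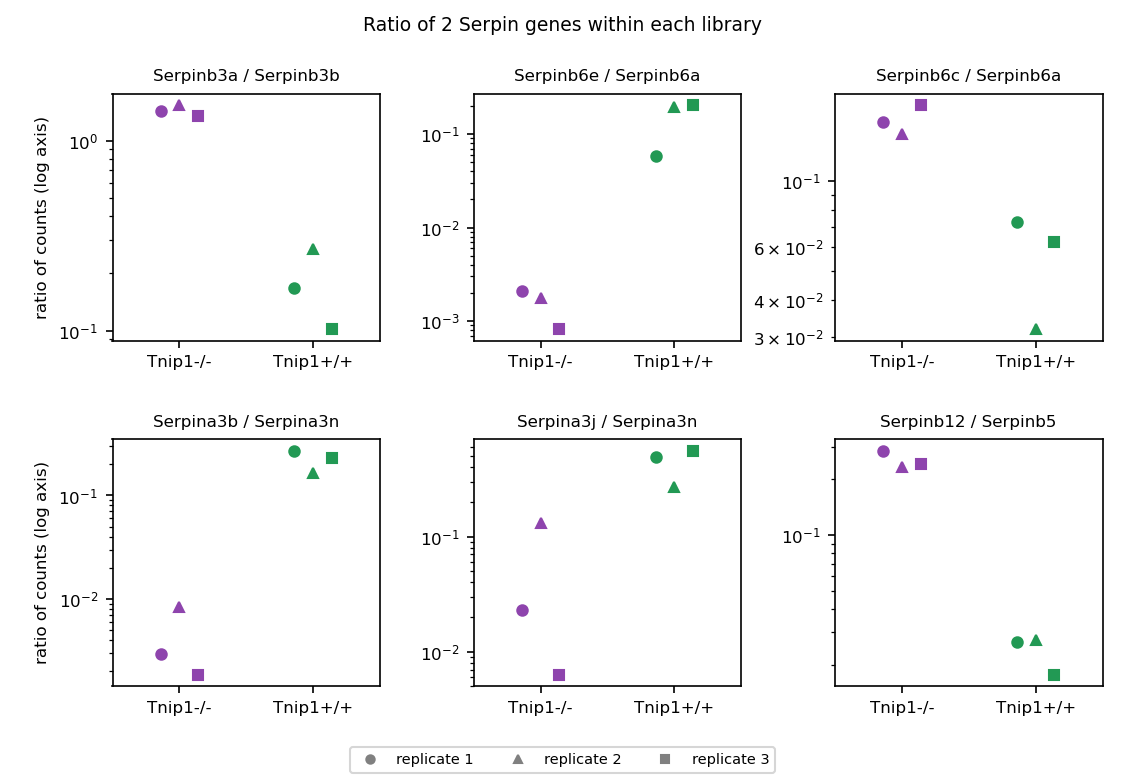
Ratio of counts of 2 serpin genes within the same library (y axis, log axis), 1 panel per pair, knockout libraries to the left of wild type libraries; marker shape gives the replicate number. Serpinb3a per Serpinb3b lies at 1.35 to 1.54 in knockout skin and at 0.101 to 0.268 in wild type skin, and the genotypes do not overlap in it.

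Of the other clade A genes, 1 rose and 1 fell. Serpina9, named centerin in human germinal centre B cells, was at 36.1, 33.9 and 20.1 CPM in knockout libraries and at 1.08, 1.09 and 1.22 CPM in wild type libraries (log2 fold change 4.73, SE 0.27, edgeR adjusted p = 1.7e-04). All knockout libraries stood far above the wild type libraries, which were nearly equal. Serpina12 encodes vaspin, an adipokine also made in skin that inhibits kallikrein 7 in human. It was at 5.47, 21.2 and 17.6 CPM in knockout libraries and at 96.4, 120 and 75.9 CPM in wild type libraries (log2 fold change -2.72, SE 0.47, edgeR adjusted p = 0.00473). Summed adipocyte markers were lower in knockout skin as well, at 133 to 972 CPM against 1870 to 3256 CPM in wild type libraries. Within the knockout libraries, replicate 2 was the highest in Serpina12 and the lowest in these markers, where Adipoq stood at 0.593 CPM. The part of adipocytes in the Serpina12 decrease was not tested. Serpina10, the protein Z-dependent inhibitor, stood below 1 CPM in all libraries and did not pass (log2 fold change 1.08, edgeR adjusted p = 0.0936, and 1.59 with a call without wild type replicate 3).

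The 4 Serpina1 genes with enough counts, copies of the alpha-1-antitrypsin gene made mainly in liver, were rare and not tested. Counts in knockout and wild type libraries were 8 and 11 for Serpina1a, 37 and 13 for Serpina1b, 13 and 14 for Serpina1d, and 34 and 7 for Serpina1e. These copies shared 14.4 to 42.8% of their 100-base windows with other genes, so the split of reads between them is uncertain. Hepatocyte markers summed to between 0.593 and 1.62 CPM in knockout skin and between 3.93 and 7.66 CPM in wild type skin. Most of the wild type sum was Alb (2.97, 5.95 and 5.89 CPM in wild type replicates 1, 2 and 3), the 1 marker of the list that was tested. Alb, Apoa1, Ttr and Apoh averaged lower in knockout skin, the opposite direction to Serpina1b and Serpina1e. Ahsg averaged higher (0.233 CPM in knockout and 0.169 CPM in wild type skin), and Fgb was at 0 in all libraries. The part of liver transcripts in the Serpina1 counts was not tested.

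Outside clades A and B, 3 members were called lower. Serpinf1 encodes pigment epithelium-derived factor, an antiangiogenic serpin that inhibits no protease. It was at 43.8, 36.1 and 33.7 CPM in knockout libraries and at 161, 173 and 130 CPM in wild type libraries (log2 fold change -2.03, SE 0.16, edgeR adjusted p = 4.09e-04). Serpinf2, the alpha-2-antiplasmin gene, was between 0.105 and 0.172 CPM in knockout skin and between 0.544 and 0.600 CPM in the wild type, from 10 knockout and 51 wild type counts, and was called lower as well. Serping1 encodes the C1 inhibitor, the main brake on complement C1 and plasma kallikrein. It was at 283, 235 and 164 CPM in knockout libraries and at 631, 630 and 416 CPM in wild type libraries (log2 fold change -1.30, SE 0.25, edgeR adjusted p = 0.00675). Serpinf1 and Serping1 are transcribed in fibroblasts. Fibroblast markers summed to 6814, 6140 and 6230 CPM in knockout replicates 1, 2 and 3 and to 16450, 7723 and 6393 CPM in wild type replicates 1, 2 and 3. Of these markers 2 of 6 were called lower (Dcn at -0.82 and Lum at -0.53 on the log2 scale). Col1a1 (-1.11), Col1a2 (-1.29), Col3a1 (-0.21) and Pdgfra (0.37) did not pass. The part of fibroblasts in the Serpinf1 and Serping1 decreases was not tested. Both Dcn and Lum lost the call without knockout replicate 2 or 3, and Lum also without any 1 wild type library.

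Serpine2, protease nexin 1, was at 19.7, 18.0 and 14.8 CPM in knockout libraries and at 37.3, 21.1 and 13.4 CPM in wild type libraries, where wild type replicate 1 stood apart (log2 fold change -0.45, SE 0.35, edgeR adjusted p = 0.314, and 0.03 without that library).

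Serpinh1 encodes Hsp47, the collagen chaperone of the endoplasmic reticulum. It was at 278, 195 and 181 CPM in knockout libraries and at 391, 235 and 257 CPM in wild type libraries, with overlapping groups (log2 fold change -0.43, SE 0.25, edgeR adjusted p = 0.187). With a sex covariate it passed (-0.59, edgeR adjusted p = 0.0432). Wild type replicate 1 was the highest in Serpinh1 and also in Col1a1, at 2354 CPM against 180 and 317 CPM in wild type replicates 2 and 3. Neuroserpin, the product of Serpini1, did not pass (log2 fold change -0.05, edgeR adjusted p = 0.930). The antithrombin gene Serpinc1 had 18 counts in knockout and 25 in wild type libraries, and the heparin cofactor II gene Serpind1 had 7 and 31, and neither was tested.

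Proteases and partner genes around these inhibitors, not all of them serpin targets, were counted in lists and read against the 22.3% of all genes called higher and 22.7% called lower. Among the epidermal serine proteases (kallikreins, matriptase-type and related enzymes), 16 of 23 tested were called higher and 0 lower, with a median log2 fold change of 2.15. At an unadjusted p under 0.05 by edgeR 1 was lower, and 0 were called lower with DESeq2. Klk13 averaged 37.0 ± 3.45 CPM in knockout skin and 2.08 ± 0.391 CPM in wild type skin, Klk6 averaged 869 ± 204 CPM in knockout skin and 65.0 ± 6.08 CPM in wild type skin, and Klk9 averaged 92.4 ± 11.1 CPM in knockout skin and 16.0 ± 2.17 CPM in wild type skin (SD, n = 3 each). Tmprss11d, an airway-type trypsin-like protease, had a log2 fold change of 4.72. Klk7, the kallikrein that vaspin inhibits in human, averaged 1746 ± 321 CPM in knockout skin and 745 ± 160 CPM in wild type skin (log2 fold change 1.23). The count of called increases was 14 to 16 without any 1 library, and without knockout replicate 1, or with library totals, it came with 1 decrease.

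In the plasminogen activation system, 6 of 12 tested genes were called higher and 0 lower (median 0.33), and 4 were higher without knockout replicate 1 or 3 or wild type replicate 3. At an unadjusted p under 0.05 by edgeR 0 were lower, and 0 were called lower with DESeq2. The urokinase receptor gene Plaur (log2 fold change 1.34), the thrombomodulin gene Thbd (1.10), Anxa2, a cell-surface plasminogen receptor subunit (1.06), and the coagulation factor gene F10 (1.69) had the smallest p-values. Among protease inhibitors outside the serpin family, 5 of 9 were called higher and 1 lower (median 0.51). Slpi, an inhibitor of neutrophil elastase, averaged 231 ± 22.3 CPM in knockout skin and 3.82 ± 1.40 CPM in wild type skin (log2 fold change 5.91). Spink12 (8.86, and 7.61 without knockout replicate 3), Wfdc12 (2.78) and the hepatocyte growth factor activator inhibitor gene Spint1 (1.34) were higher as well. The single decrease in that list was lost without any 1 knockout library or wild type replicate 3, and with limma voom or the sex covariate.

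Cathepsins and legumain split, with 4 of 13 called higher and 3 lower (median 0.29). Ctsl (log2 fold change 1.46) and Ctsd (1.01) rose, and Ctsw (-1.17), a protease of cytotoxic lymphocytes, and Ctso (-0.78) fell. Without wild type replicate 2 the count of increases was 6. It was 2 without knockout replicate 2 or 3 or wild type replicate 3, and also with library totals, upper-quartile factors, the stricter filter or the sex covariate. Decreases numbered 2 without knockout replicate 2 or 3. In a list of leukocyte granule genes, most of them serine proteases, 2 of 12 were called higher and 1 lower (median -0.16). The basophil protease gene Mcpt8 (5.18) and the mast cell tryptase gene Tpsab1 (2.18) were higher. The gene called lower was that of perforin, Prf1 (-1.50), a pore-forming protein and not a protease, and all 3 had means under 3 CPM. Without single libraries 1 to 3 of this list were called higher and 1 or 2 lower, with the stricter filter 0 were higher, and 2 were lower in every alternative that kept all 6 libraries, and Tpsab1 lost its call without knockout replicate 2 (1.59) or wild type replicate 2 (1.87) or 3 (2.18).

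Partners of Hsp47 in collagen synthesis gave 2 of 15 higher and 1 lower (median -0.12). The protein disulphide isomerase gene P4hb (1.09) and the cyclophilin B gene Ppib (0.72) rose, and Sparc (-1.55) fell, a call lost without any 1 knockout library and a value of -0.70 without wild type replicate 1. Without that library the list had 4 higher and 2 lower. In the list of complement C1 and kallikrein-kinin genes, which includes the non-protease C1q subunits, 0 of 8 were called higher and 1 lower (median -0.38). At an unadjusted p under 0.05 by edgeR 0 were higher, and 0 were called higher with DESeq2. The decrease was Masp2 (-2.81, and -6.90 without knockout replicate 1), which stood below 1 CPM in all libraries and lost its call without any 1 of the other 5 libraries. With library totals, 4 of the 8 were called lower, and with the stricter filter or the sex covariate 0 were.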

How the data were processed

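Total RNA from skin biopsies was isolated in TRIzol, and rRNA-depleted stranded libraries were sequenced from both ends, per the labels' protocols. The deposited values are counts, whole numbers per gene symbol, made by the authors; the submitters' processing notes name CASAVA 1.7, STAR, BWA, HTSeq, limma, R 3.2.3 and build mm9. Roles, settings, the strand option and the annotation are not given in the sources used here, so reads of overlapping or antisense genes could not be told apart. The 5 summary lines of each file (26.7 to 28.0% of knockout and 27.6 to 30.3% of wild type counts) were left out.

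Groups follow the labels, and the design text gives 3 mice per genotype. The test was edgeR 4.0.16's quasi-likelihood test (R 4.3.3) after the default low-count filter, with TMM factors of 0.898 to 0.981 in knockout and 0.997 to 1.095 in wild type libraries and Benjamini-Hochberg adjustment over 16691 genes. Each SE is the size of the fold change over the square root of F. The procedure was checked on simulated counts. A gene with 3 counts stands at 0.127 to 0.157 TMM-scaled CPM in knockout and 0.0900 to 0.111 CPM in wild type libraries. Levels below that were taken as not detectable at this depth. Some knockout values of Serpinb1c, Serpinb9b and Serpinf2 lie there. Exact 95% intervals pool the counts of 3 mice per genotype and cover counting error only, not variation between mice. Even for counting error they may be too narrow, since PCR copies are not independent molecules.

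The members and gene lists were chosen with earlier results of these data known, so counts over them are descriptions. All members enter the counts, and the values of 1 member are not reported here. Values per library are given for called members with a mean of at least 1 CPM and for all Serpina3, Serpinb3 and Serpinb6 genes, and of each list up to 4 genes with the smallest p; Klk7 and marker genes beyond these were chosen after their values were seen. Alternatives were DESeq2 1.42.0, limma voom 3.58.1, library totals, upper-quartile factors, no filter, a stricter filter (1 CPM in 3 libraries), the replicate number as a block and leaving out each library. A sex covariate was added after seeing the data. Promoters are from RefSeq (GRCm38.p6, 39 of 51 members, first entry per gene) and shared transcript windows from GENCODE M21; neither is the authors' build, and only sequence and order were used.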

Additional observations from a re-analysis of the deposited data

How the results depend on the processing

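Of the 25 called members, 20 kept their call and direction in all 14 alternatives that gave a value, and 5, among them Serpina3c, Serpina3j, Serpinb5 and Serpinb10-ps, lost the call in at least 1. Counts of members higher and lower were 13 and 14 with DESeq2, 10 and 14 with library totals, 11 and 13 with upper-quartile factors, 11 and 14 with limma voom, 17 and 13 with no filter, 12 and 10 with the stricter filter and 10 and 14 with the sex covariate. Leaving out each library gave 10 to 12 higher and 11 to 14 lower. Among listed protease, partner and cell type genes, leaving out each library gave 42 to 53 called higher, against 51, and 20 to 29 called lower, against 33. Signs turned for members that did not pass in the fit reported, and their ranges over leaving out each library were -1.18 to 0.50 for Serpina3k, -0.16 to 0.22 for Serpina3n, -0.05 to 0.21 for Serpinb6a, -0.31 to 0.04 for Serpinb6b, -0.73 to 0.03 for Serpine2 and -0.55 to 0.24 for Serpini1. Outside those, the sign turned for Serpina3n with library totals (-0.09), upper-quartile factors (-0.02) and the sex covariate (-0.07), for Serpinb6a with library totals (-0.07) and upper-quartile factors (-0.01), and for Serpini1 with the sex covariate (0.07). The causes were not tested. With 3 mice a genotype, members under about 1 CPM rest on few counts.

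The replicate numbers did not pair the libraries: deviations of same-numbered libraries correlated at 0.01, -0.21 and 0.19. With the replicate block, 9 members were called higher and 14 lower. Serpinb5 (0.47) and Serpinb10-ps (0.61) lost their calls under the block and Serpinh1 (-0.42) gained one. Called increases among cathepsins fell to 2 and among granule genes to 1, and the decreases in the lists of other inhibitors and of complement C1 genes fell to 0.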

Other observations

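The make-up of the serpin transcript pool differed between genotypes. Serpinb3a took 7.71 to 12.3% of all serpin counts in knockout libraries and 0.0960 to 0.329% in wild type libraries, and Serpinb2 took 11.8 to 17.3% and 5.18 to 6.33%. Serping1 took 5.05 to 6.48% in knockout libraries and 15.4 to 18.7% in wild type libraries. Serpinb5 (11.2 to 18.4% and 10.5 to 16.0%) and Serpina3n (10.6 to 12.2% and 9.85 to 14.6%) overlapped between knockout and wild type libraries. Counts of Serpina9 per count of Serpina12, both clade A genes of chromosome 12, were 6.60, 1.60 and 1.14 in knockout replicates 1, 2 and 3 and 0.0112, 0.00904 and 0.0161 in wild type replicates 1, 2 and 3.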
